A study of Mus musculus with 12 samples.

Results

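The Ikaros family of transcription factors was examined in mouse CD4+ T cells sorted by an Eomes reporter. Its 5 genes, Ikzf1 (Ikaros), Ikzf2 (Helios), Ikzf3 (Aiolos), Ikzf4 (Eos) and Ikzf5 (Pegasus), were taken by symbol from the 43626 genes of the count matrix, and all 5 were among the 13238 genes that passed the filter on low counts. The family was chosen by a measured value: the difference in Ikzf2 counts between reporter-positive and reporter-negative cells, which was unlike in the 2 donor genotypes. Values of Ikzf2 are therefore given as a description, with no test, and the other 4 genes were tested.

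Ikaros family proteins are zinc finger factors. Fingers in their amino-terminal part bind DNA, and fingers at the carboxy terminus let members pair with themselves and with each other, so the mixture of members in a cell matters for what they do. Ikaros and Aiolos recruit histone deacetylase and chromatin remodelling complexes in lymphocytes, Helios and Eos are best known in regulatory T cells, and Pegasus is the most divergent member.

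The study asked which genes mark CD4+ T cells that express Eomes, the gene of a T-box transcription factor of cytotoxic and memory lymphocytes, and which of them need Eomes. Donor mice had the genotype Eomes flox/GFP, with 1 conditional allele and 1 green fluorescent protein (GFP) reporter allele, either without cre (called Het, as in the sample names) or with Lck-cre, a recombinase driven by a T cell promoter (called KO). Naive CD45RBhi CD25- CD4+ T cells of these donors were given to adult male Rag2-/- mice, which lack T and B cells of their own but keep other blood cells. CD4+ cells of each recipient's spleen were sorted into GFP+ and GFP- fractions after 3 weeks, giving 4 groups of 3 libraries from 6 recipients. The reporter allele was present in every group, so no group had 2 unmodified Eomes alleles. The sources used here do not give the ages of the animals.

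One zinc finger is printed here as coding sequence to show the members side by side, 5′ to 3′ on the coding strand, from the GENCODE M21 transcripts of GRCm38. It is the second match, counted from the start codon, to the pattern of 2 cysteines, 12 residues and 2 histidines. Capitals mark the 4 codons of those cysteines and histidines, and each stretch has 63 bases.
Ikzf1 (chr11:11754024-11754086, plus strand): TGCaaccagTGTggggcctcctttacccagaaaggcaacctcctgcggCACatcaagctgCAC
Ikzf2 (chr1:69570581-69570643, minus strand): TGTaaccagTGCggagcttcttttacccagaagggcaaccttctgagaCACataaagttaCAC
Ikzf3 (chr11:98488940-98489002, minus strand): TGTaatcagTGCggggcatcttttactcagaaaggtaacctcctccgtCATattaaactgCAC
Ikzf4 (chr10:128640229-128640291, minus strand): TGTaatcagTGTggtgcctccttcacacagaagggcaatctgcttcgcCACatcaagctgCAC
Ikzf5 (chr7:131392501-131392563, minus strand): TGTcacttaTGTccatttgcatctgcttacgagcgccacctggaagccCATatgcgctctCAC
This stretch matched that of Ikzf1 at 81.0% of bases in Ikzf2, 81.0% in Ikzf3 and 84.1% in Ikzf4, but at 41.3% in Ikzf5. The finger pattern occurred 6 times in the coding sequence of Ikzf1, Ikzf2 and Ikzf4 and 5 times in that of Ikzf3 and Ikzf5. A finger that departs from this pattern was not counted, so 5 matches do not show that a member has fewer fingers. Fingers were paired by their order alone, so the second match of Ikzf5 need not be the counterpart of that of Ikzf1. Counts were made per gene, so forms that differ in these fingers by splicing were not told apart.

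In the deposited coordinates (mm10), Ikzf1 (ENSMUSG00000018654.13) lay on chromosome 11 from 11685003 to 11772926 on the plus strand. Ikzf3 (ENSMUSG00000018168.8) lay on the same chromosome from 98464902 to 98546031 on the minus strand. Ikzf2 (ENSMUSG00000025997.9) lay on chromosome 1 from 69531214 to 69687245, Ikzf4 (ENSMUSG00000002578.11) on chromosome 10 from 128630843 to 128645991 and Ikzf5 (ENSMUSG00000040167.11) on chromosome 7 from 131388652 to 131410521, all on the minus strand. Exons of Gm29114 overlapped those of Ikzf2 by 144 bases on the opposite strand, and exons of Gm26876 overlapped those of Ikzf4 by 37 bases on the opposite strand. These partners had few reads: 19 counts against 5884 for Ikzf2, and 7 against 364 for Ikzf4, summed over the 12 libraries.

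Libraries held 2116894 to 18167236 counts. GFP+ samples had 18000 to 117000 cells and GFP- samples 645000 to 2100000, so every GFP+ sample had fewer cells than every GFP- one. In replicate 2 of both GFP+ groups, 4 features held 54.3% (KO) and 58.3% (Het) of the counts, against 16.3% to 30.9% elsewhere. Levels are CPM, counts scaled to 1000000 per library with TMM factors. The 3 libraries of a group came from 3 recipients, while the sources used here do not say whether donors were pooled. The targeted gene Eomes was at 9.18, 3.67 and 2.15 CPM in Het GFP- and at 115, 123 and 89.7 CPM in Het GFP+ libraries. In KO cells it was at 4.72, 1.94 and 2.18 CPM without and at 46.6, 45.6 and 31.5 CPM with GFP. Eomes reads were thus present in KO GFP+ cells, at levels below every Het GFP+ library, and counts per gene do not tell its 2 alleles apart. The 8 CD4+ T cell markers summed to between 1913 and 3066 CPM in every library, and were lower with GFP in 6 of 6 recipients.

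Helios stood out by its level in a single group. Ikzf2 was at 27.5, 19.1 and 16.9 CPM in the Het GFP- libraries of recipients 1, 2 and 3, and at 203, 97.0 and 96.0 CPM in their Het GFP+ libraries. In KO recipients it was at 44.2, 25.9 and 21.5 CPM in GFP- and at 37.0, 22.1 and 46.6 CPM in GFP+ libraries. All 3 Het GFP+ libraries lay above the other 9 libraries, which spanned 16.9 to 46.6 CPM and overlapped between their 3 groups. Group means were 132 ± 61.4 CPM (SD, n = 3) in Het GFP+, 35.2 ± 12.3 in KO GFP+, 30.5 ± 12.1 in KO GFP- and 21.2 ± 5.56 in Het GFP- cells, and neighbours below the first did not differ beyond their spread. The lowest count behind these levels was 31, in KO GFP+ replicate 2, and the others were 249 or more. In bulk samples, a larger share of cells with Ikzf2 transcripts and more transcripts per cell cannot be told apart.

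**Figure D1:**
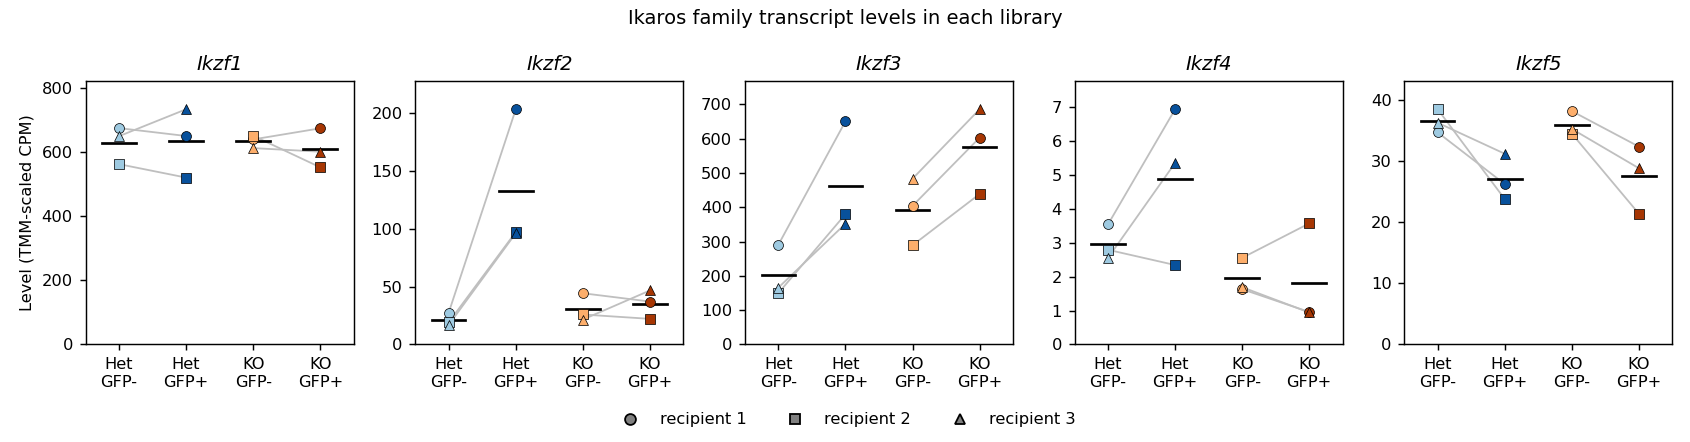
Level of each Ikaros family gene in each library, in CPM on a linear axis from 0, by group (x axis). Points are libraries, shapes mark the recipient, grey lines join the GFP- and GFP+ libraries of a recipient, and black bars are group means. Ikzf2 was above 90 CPM in the 3 Het GFP+ libraries and below 50 CPM in the other 9, while Ikzf1 stayed between 521 and 734 CPM.

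Within recipients, the log2 ratio of Ikzf2 between GFP+ and GFP- cells was 2.88, 2.34 and 2.50 in the Het recipients and -0.25, -0.23 and 1.11 in the KO recipients. All 3 Het ratios lay above all 3 KO ratios, a separation favoured by the rule that chose the family. Ratios also did not overlap between genotypes for 8.96% of tested genes, and for 5.19% with Het higher. The KO recipients did not share a direction. The fitted log2 difference between GFP+ and GFP- was 2.65 (SE 0.38), 6.26-fold, in Het cells and 0.26 (SE 0.37) in KO cells. The Het-minus-KO contrast of these differences was 2.39 (SE 0.52). Het GFP+ exceeded KO GFP+ cells by 1.86 (SE 0.38), while Het GFP- lay below KO GFP- cells by a log2 difference of -0.53 (SE 0.36). The KO value moved with single libraries: it was 0.00 without KO GFP+ replicate 3, 0.06 without KO GFP- replicate 3, 0.15 without KO GFP- replicate 2, 0.46 without KO GFP+ replicate 2 and 0.64 without KO GFP- replicate 1. The Het value was lowest without Het GFP+ replicate 1, at 2.18.

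In the authors' deposited table of Het GFP+ against Het GFP- cells, which lists 1406 genes, Ikzf2 had a log2 fold change of 2.38 (SE 0.32). The authors' deposited table of Het GFP+ against KO GFP+ cells lists 77 genes and gives Ikzf2 as -1.41 (SE 0.31), where a negative sign means lower in KO, as checked against the counts. The authors' deposited table of KO GFP+ against KO GFP- cells, with 388 genes, holds none of the 5 family members.

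**Figure D2:**
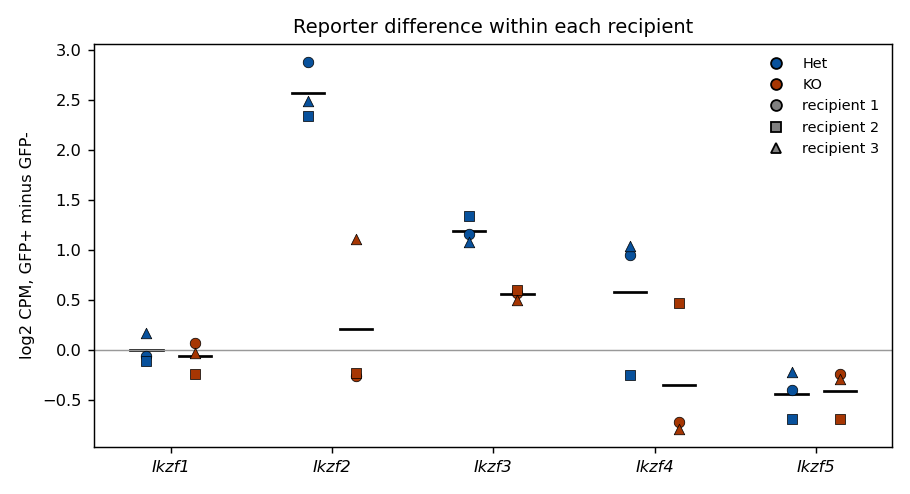
Log2 ratio of CPM, GFP+ over GFP-, within each of the 6 recipients (y axis) for the 5 members (x axis), with Het in blue and KO in brown, shapes for the recipient and black bars for the mean of 3 recipients. Ikzf2 ratios were 2.34 to 2.88 in Het and -0.25 to 1.11 in KO recipients. Ikzf3 ratios were above 0 in all 6 recipients, and Ikzf5 ratios were below 0 in all 6. The share of all tested genes with the same sign in all 6 was not computed.

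Reads from inside the Helios gene were also counted apart from its exons. Gm28112 (ENSMUSG00000099954.1, chromosome 1, 69660187 to 69662061) and Gm29112 (ENSMUSG00000100815.1, chromosome 1, 69595036 to 69598522) lie within Ikzf2 on the same strand, are annotated as sense intronic genes in GENCODE M21, and share 0 exon bases with it. Libraries were made from total RNA without poly(A) selection, so unspliced transcripts are sampled as well. They were not part of the choice of the family but overlap its transcript, and are described without a test.

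Gm28112 was at 2.86, 1.22 and 0.793 CPM in Het GFP- and at 36.0, 8.96 and 7.29 CPM in Het GFP+ libraries. Its Het GFP+ level was highest in replicate 1, as was that of Ikzf2, which was nearly equal in replicates 2 and 3. In KO cells Gm28112 was at 1.47, 1.21 and 0.992 CPM without and at 2.55, 2.85 and 8.24 CPM with GFP. Gm29112 was at 1.73, 1.16 and 0.793 CPM in Het GFP- and at 19.7, 7.40 and 8.07 CPM in Het GFP+ libraries. In KO cells it was at 0.977, 1.46 and 0.793 CPM without and at 2.44, 2.85 and 2.82 CPM with GFP. Both were higher in GFP+ than in GFP- cells in 6 of 6 recipients, including KO recipients 1 and 2, in which Ikzf2 itself was slightly lower.

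Set against the exon counts of Ikzf2, Gm28112 amounted to 7.41% in Het GFP-, 13.3% in Het GFP+, 4.14% in KO GFP- and 12.6% in KO GFP+ cells, from 70, 368, 58 and 98 counts. Gm29112 amounted to 5.71%, 9.05%, 3.71% and 6.57% in the same order, from 54, 250, 52 and 51 counts. Single libraries set some of these pooled shares of Gm28112: without Het GFP+ replicate 1 the Het GFP+ share was 7.92%, and without KO GFP+ replicate 3 the KO GFP+ share was 7.37%. Within recipients, the share of Gm28112 was 10.4%, 6.41% and 4.68% in Het GFP- and 17.7%, 9.24% and 7.59% in Het GFP+ libraries. In KO recipients it was 3.31%, 4.69% and 4.62% without and 6.88%, 12.9% and 17.7% with GFP, so the share was larger in the GFP+ library of each recipient. The share of Gm29112 was also larger in the GFP+ library of 6 of 6 recipients. In KO GFP+ replicate 2 each of these 2 genes had only 4 counts.

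**Figure D3:**
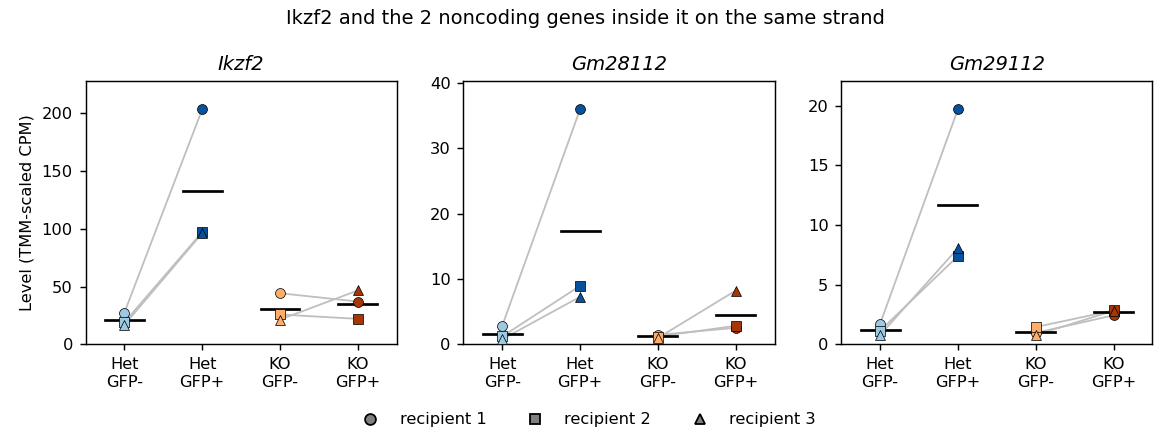
Level in CPM (linear axes from 0) of Ikzf2 and of Gm28112 and Gm29112, which lie inside Ikzf2 on its strand, by group (x axis). Points are libraries, shapes mark the recipient, grey lines join libraries of a recipient and black bars are group means. All 3 genes were highest in Het GFP+ replicate 1, at 203, 36.0 and 19.7 CPM, and the 2 inner genes were higher in GFP+ cells in 6 of 6 recipients.

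Aiolos, a partner of Ikaros in lymphocytes, was higher in GFP+ than in GFP- cells of each of the 6 recipients, a difference that passed the test in both genotypes with the recipient block and not in the unblocked edgeR fit. Ikzf3 was at 291, 150 and 166 CPM in Het GFP- and at 650, 380 and 352 CPM in Het GFP+ libraries. In KO recipients it was at 404, 289 and 483 CPM in GFP- and at 603, 438 and 685 CPM in GFP+ libraries. The Het groups did not overlap, while the KO groups overlapped and each GFP+ library exceeded the GFP- library of its own recipient. The share of all tested genes with the same direction in all 6 recipients was not computed. In order of mean level, KO GFP+ (575 ± 126 CPM, SD, n = 3), Het GFP+ (461 ± 165), KO GFP- (392 ± 97.5) and Het GFP- cells (202 ± 77.1) each overlapped the next.

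The log2 fold change of Ikzf3 between Het GFP+ and Het GFP- cells was 1.19 (SE 0.32), with an adjusted p of 0.0625 in edgeR's quasi-likelihood test, which misses the threshold of 0.05. With the recipient as a block it was 1.20 with an adjusted p of 0.000304, and DESeq2 gave an adjusted p of 0.00563. The adjusted p without the filter on low counts was 0.022, without Het GFP- replicate 1 it was 0.0405 and without KO GFP+ replicate 1 it was 0.0486. Over all alternatives it ran from 0.000304 to 0.259. In KO cells the log2 fold change was 0.56 (SE 0.32), with an edgeR adjusted p of 0.354 that became 0.0197 with the recipient block. The authors' deposited table of Het GFP+ against Het GFP- cells gives Ikzf3 a log2 fold change of 1.08 (SE 0.31) and an adjusted p of 0.00889.

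Ikzf3 ratios within recipients were 1.16, 1.34 and 1.09 on the log2 scale in Het and 0.58, 0.60 and 0.51 in KO recipients. The 2 sets did not overlap, which was also so for 8.96% of all tested genes, and for 5.19% with Het higher. A two-sided exact permutation test of the 3 Het against the 3 KO ratios gave p = 0.1, the smallest it can give, and 0.4 after Benjamini-Hochberg adjustment over the 4 members tested. The interaction in edgeR was 0.63 (SE 0.45) with an adjusted p of 1, and 0.63 (SE 0.19) with an adjusted p of 0.493 with the recipient block. Between genotypes, Ikzf3 differed by a log2 fold change of -0.96 (SE 0.32, edgeR adjusted p 0.903) in GFP- cells, Het minus KO. In GFP+ cells that value was -0.32 (SE 0.32, adjusted p 1).

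Ikaros, the founding member and the one with the highest level per exon length in all 12 libraries, hardly moved. Ikzf1 was at 676, 563 and 650 CPM in Het GFP-, 651, 521 and 734 CPM in Het GFP+, 640, 652 and 613 CPM in KO GFP-, and 675, 553 and 602 CPM in KO GFP+ libraries. All 4 groups overlapped, and their means lay between 610 and 635 CPM. The highest library was 1.41 times the lowest, a ratio smaller than that of all but 3.74% of tested genes. That ratio was 11.98 for Ikzf2 and 4.58 for Ikzf3, with smaller ratios in 86.1% and 72.4% of tested genes. Log2 fold changes of Ikzf1 were 0.01 (SE 0.17) for GFP in Het and -0.06 (SE 0.17) for GFP in KO cells, with edgeR adjusted p of 0.972 and 0.875. Between genotypes they were 0.06 and -0.01, both with an SE of 0.17 and an adjusted p of 1.

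Pegasus was lower in reporter-positive cells by a small amount that did not pass the test. Ikzf5 was at 34.7, 38.5 and 36.3 CPM in Het GFP- and at 26.2, 23.8 and 31.2 CPM in Het GFP+ libraries. In KO recipients it was at 38.2, 34.5 and 35.3 CPM in GFP- and at 32.4, 21.4 and 28.8 CPM in GFP+ libraries. All 6 GFP+ libraries lay below all 6 GFP- libraries. GFP+ and GFP- groups also did not overlap for 27.3% of tested genes in Het and 20.3% in KO cells. The share of genes separated over both genotypes together was not computed. The log2 fold change was -0.42 (SE 0.17) in Het and -0.36 (SE 0.17) in KO cells, with edgeR adjusted p of 0.17 and 0.298. With the recipient block the adjusted p was 0.0737 and 0.123. Ratios within recipients were -0.40, -0.69 and -0.22 in Het and -0.24, -0.69 and -0.29 in KO recipients, and an exact permutation test of the 2 sets gave p = 0.9 before and after adjustment over the 4 members.

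Eos, a Foxp3 partner in regulatory T cells, was close to the limit of detection. Ikzf4 was at 3.54, 2.79 and 2.55 CPM in Het GFP-, 6.92, 2.34 and 5.35 CPM in Het GFP+, 1.63, 2.55 and 1.69 CPM in KO GFP-, and 0.955, 3.56 and 0.941 CPM in KO GFP+ libraries. These rested on 5 to 55 counts each, and every pair of groups compared overlapped. Its largest log2 fold change was 1.86 (SE 0.56) between Het GFP+ and KO GFP+ cells, with an edgeR adjusted p of 0.407 and a range of 0.103 to 0.911 over the alternatives. GFP+ and GFP- cells differed by 0.77 (SE 0.48, adjusted p 0.337) in Het and by -0.50 (SE 0.55, adjusted p 0.621) in KO cells. Ratios within recipients had mixed signs in both genotypes, and the exact permutation test of Het against KO ratios gave p = 0.2, or 0.4 after adjustment.

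Counts of members called cover the 4 tested members, without Ikzf2, and stand beside the background of all 13238 tested genes. Between Het GFP+ and Het GFP- cells, edgeR called 457 genes (3.45%) and 0 of the 4 members. With the recipient block it called 2944 genes (22.2%) and 1 member, Ikzf3, and DESeq2 called 1196 genes (9.03%) and 1 member, again Ikzf3. Groups did not overlap for 27.3% of tested genes and for 2 members, Ikzf3 and Ikzf5. Between KO GFP+ and KO GFP- cells, 17 genes (0.128%) and 0 members were called, against 2349 genes (17.7%) and 1 member, Ikzf3, with the block, and 403 genes (3.04%) and 0 members by DESeq2. The KO groups did not overlap for 20.3% of genes and for 1 member, Ikzf5.

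In the genotype comparisons and the interaction, 0 of the 4 members were called by any of the 3 fits. Between Het GFP+ and KO GFP+ cells, edgeR called 14 genes (0.106%), the block 12 (0.0906%) and DESeq2 93 (0.703%), and groups did not overlap for 7.48% of genes and 0 of the 4 members. Between Het GFP- and KO GFP- cells edgeR called 0 genes (0%), the block 4 (0.0302%) and DESeq2 45 (0.34%), and groups did not overlap for 11.3% of genes and 0 of the 4 members. The interaction of GFP and genotype was called for 1 gene (0.00755%), Zfp683, named here after its values were seen, for 10 genes (0.0755%) with the block and for 11 genes (0.0831%) by DESeq2. At an unadjusted p under 0.05, edgeR had 3071 genes for GFP in Het cells, Ikzf3 and Ikzf5 among them, and 2321 genes and none of the 4 members for GFP in KO cells. It had 824 genes, with Ikzf4, for genotype in GFP+ cells, 695 genes, with Ikzf3, for genotype in GFP- cells, and 264 genes and none of the 4 members for the interaction. The 2 reporter comparisons share no library, whereas the interaction and the genotype comparisons reuse the libraries of both.

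Levels of different genes were compared per kilobase of summed exon length (RPKM, computed from the scaled CPM). Ikzf1 averaged 109, 110, 110 and 106 RPKM in Het GFP-, Het GFP+, KO GFP- and KO GFP+ cells, and Ikzf3 averaged 23.1, 52.6, 44.8 and 65.7 RPKM. Ikzf5 averaged 7.47, 5.54, 7.36 and 5.63 RPKM, and Ikzf2 averaged 1.82, 11.4, 2.63 and 3.03 RPKM. Ikzf4 stayed between 0.304 and 0.812 RPKM. Averaged over the 12 libraries, the level per length of Ikzf1 was above 97.6% of tested genes, that of Ikzf3 above 93.7%, that of Ikzf5 above 52.3%, that of Ikzf2 above 43.6% and that of Ikzf4 above 7.51%.

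As a share of the summed family level per length, Ikzf1 made up 73.0% to 80.0% in Het GFP- libraries and 53.4% to 69.5% in Het GFP+ libraries. In KO cells it made up 62.2% to 72.5% without and 54.1% to 62.7% with GFP. Ikzf2 made up 4.52% to 8.28% in Het GFP+ libraries and 1.04% to 2.25% in the other 9. Its level per length was above that of Ikzf5 in the 3 Het GFP+ libraries and below it in the other 9. The level per length of Ikzf3 relative to Ikzf1, which does not depend on library scaling, was 0.168 to 0.284 in Het GFP-, 0.316 to 0.659 in Het GFP+, 0.293 to 0.520 in KO GFP- and 0.523 to 0.751 in KO GFP+ libraries. These ranges did not overlap between GFP+ and GFP- cells in Het. In KO cells they nearly touched, at 0.520 in GFP- replicate 3 and 0.523 in GFP+ replicate 2, which had 615 Ikzf3 counts. The share of other genes with such a separation was not computed.

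**Figure D4:**
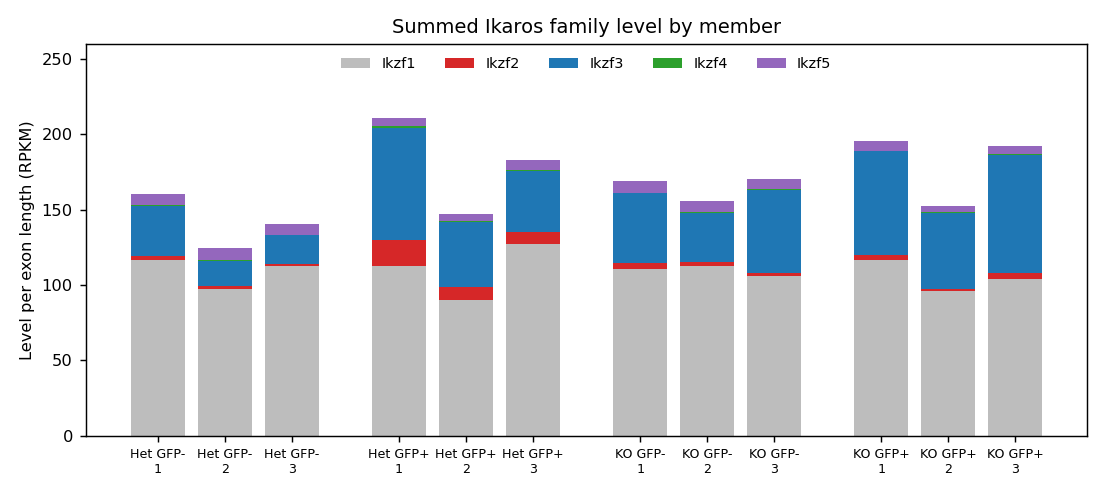
Summed level of the 5 family members in each library, in RPKM (y axis, linear from 0), with libraries by group on the x axis and colours for members. The Ikzf1 part was of similar height in all libraries (90.2 to 127 RPKM), the Ikzf3 part was larger in the GFP+ library of each recipient, and the Ikzf2 part was 8.27 to 17.5 RPKM in Het GFP+ and at most 4.01 RPKM elsewhere.

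Foxp3, the factor that defines regulatory T cells, did not accompany Helios in Het GFP+ cells. It was at 0.266, 0.779 and 0.0972 CPM there, from 1 or 2 counts a library, and at 1.81, 1.90 and 2.32 CPM in Het GFP- libraries. In KO cells it was at 13.3, 2.19 and 3.27 CPM without GFP, and 0.531, 0 and 10.5 CPM with GFP. The KO library with the highest Ikzf2, GFP+ replicate 3, was thus also the KO GFP+ library with the highest Foxp3, and GFP- replicate 1 was highest for both among KO GFP- libraries. The part of Foxp3-positive cells in those KO values was not tested.

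Of 12 regulatory T cell genes, 10 passed the filter. Between Het GFP+ and Het GFP- cells 3 were called higher and 2 lower by edgeR, beside 3.45% of all tested genes called, and their median log2 fold change was 0.01, against -0.02 for all tested genes. Il2ra, the high-affinity interleukin-2 receptor chain, fell by 1.78 (SE 0.27, edgeR adjusted p 0.00647), from 71.1 to 78.8 CPM in GFP- to 16.4 to 26.3 CPM in GFP+ libraries. Itgae, the integrin chain CD103, fell by 2.49 (SE 0.49, adjusted p 0.0179), from 7.42 to 10.3 CPM down to 1.36 to 1.95 CPM. Izumo1r, the folate receptor 4 gene, rose by 2.42 (SE 0.40, adjusted p 0.00933), from 1.98 to 3.24 CPM up to 9.74 to 17.2 CPM.

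Il10, an anti-inflammatory cytokine, rose by 4.18 (SE 0.95, edgeR adjusted p 0.0347), from 0.136 to 1.53 CPM in Het GFP- to 1.95 to 30.7 CPM in Het GFP+ libraries. Entpd1, the ectonucleotidase CD39, rose by 1.38 (SE 0.34, adjusted p 0.0453). The Entpd1 call was lost in 9 of the 12 fits that leave out 1 library, with adjusted p up to 0.147, and held with the recipient block at 0.00103. The Il10 call was lost without Het GFP- replicates 1 (0.0819), 2 (0.14) or 3 (0.0546), and without Het GFP+ replicates 1 (0.0662) or 3 (0.0812). The Itgae call was lost without Het GFP- replicate 2 (0.0664) and without Het GFP+ replicates 1 (0.0608) or 3 (0.0625), and the Izumo1r call without Het GFP- replicate 2 (0.0606). In the other 4 comparisons none of the 10 was called, with medians of -0.54 for GFP in KO cells, 0.42 and -0.27 for Het against KO in GFP+ and GFP- cells, and 0.46 for the interaction. With the recipient block Il2ra was also lower in KO GFP+ cells (adjusted p 0.0129).

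Genes reported elsewhere as targets of Ikaros family factors numbered 18, of which 14 passed the filter. In Het cells 1 was called higher with GFP, Il10, and 1 lower, Il7r, the interleukin-7 receptor chain, beside 3.45% of all tested genes. The median was -0.37, against -0.02 for all tested genes. Il7r fell by 1.91 (SE 0.32, edgeR adjusted p 0.00974), from 444 to 535 CPM in GFP- down to 114 to 164 CPM in GFP+ libraries. In KO cells it fell by 2.05 (SE 0.33, adjusted p 0.0384), from 199 to 354 CPM down to 44.2 to 109 CPM, and was the 1 gene of the list called there, beside 0.128% of all tested genes, with a list median of -0.60. That KO call was lost in 8 of 12 fits without 1 library, with adjusted p up to 0.235, whereas the Het call held in 12 of 12. The recipient block called 8 of the 14 in Het cells, 2 higher and 6 lower, and 7 in KO cells, 1 higher and 6 lower, where it called 22.2% and 17.7% of all tested genes. Il2, which Ikaros family members are known to repress, had very low levels. It was at 1.08 to 1.97 CPM in Het GFP- and 0.0972 to 0.390 CPM in Het GFP+ libraries. The Il2 difference in Het cells was not called by edgeR (adjusted p 0.116) but was with the recipient block (0.00893). In KO cells neither fit called Il2, with adjusted p of 0.281 in edgeR and 0.0885 with the block. The part of the family members in these Il2 values was not tested.

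Bcl2, a survival factor, was the 1 listed target called between genotypes, in a comparison with 0.106% of all tested genes called. It was at 110 to 136 CPM in Het GFP+ and 39.4 to 41.3 CPM in KO GFP+ libraries, a log2 fold change of 1.66 (SE 0.25, edgeR adjusted p 0.0324). The call was lost with the recipient block (0.0591) and in 9 of 12 fits without 1 library, with adjusted p up to 0.181. The list medians were 0.35 in that comparison, 0.11 between GFP- groups and 0.07 for the interaction, against 0.01, 0.01 and 0.00 for all tested genes.

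The corepressor partners, 17 members of the nucleosome remodelling and deacetylase, Sin3 and CtBP complexes, moved little. Of the 17, all tested, 1 was called lower between Het GFP+ and Het GFP- cells (3.45% of all tested genes called) and 0 were called in the other 4 comparisons, with list medians from -0.01 to 0.06. Mbd2, a methyl-CpG binding subunit, fell by 0.75 (SE 0.14, edgeR adjusted p 0.0163), from 185 to 215 CPM down to 105 to 131 CPM. That call was lost without Het GFP- replicate 2 (0.0899) and without Het GFP+ replicate 2 (0.0639). In KO cells Mbd2 differed by -0.42 (SE 0.14, adjusted p 0.228). Ctbp2 was called higher in Het GFP+ cells with the recipient block (adjusted p 0.014) from low levels, 0.677 to 3.13 CPM in GFP- and 1.86 to 6.71 CPM in GFP+ libraries.

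Human cereblon is the substrate receptor through which thalidomide analogues direct Ikaros and Aiolos to degradation. That action is stated for the human protein and is not assumed here for mouse cells. Of the 5 mouse genes of the cereblon ubiquitin ligase, all tested, none was called by edgeR in any of the 5 comparisons. The medians for GFP were -0.22 in Het and -0.31 in KO cells. With the recipient block 2 were called lower in both genotypes, where it called 22.2% (Het) and 17.7% (KO) of all tested genes. Crbn itself had a blocked log2 fold change of -0.69 (adjusted p 0.0215) in Het and -0.80 (adjusted p 0.0182) in KO cells. Rbx1, the ring finger subunit, had -0.65 (adjusted p 0.0315) and -0.71 (adjusted p 0.0314).

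Among 9819 other genes that averaged 5 CPM or more, those whose log2 CPM followed Ikzf2 most closely over the 12 libraries were Wipf1 (Pearson r 0.92), Bid (0.91), Gm28112 (0.91), Lrrk1 (0.90) and Nsmaf (0.90). The lowest were Rgs10 (-0.86), Mycbp (-0.86) and Ckb (-0.86). These r values describe 12 libraries that share groups, recipients and depth. These genes were picked for their r with Ikzf2, so the choice favoured like group patterns, and r does not measure the size of a change. Wipf1 averaged 320 CPM in Het GFP+ against 255, 257 and 266 CPM in Het GFP-, KO GFP- and KO GFP+ cells. Lrrk1 averaged 103 CPM in Het GFP+ against 19.4, 25.8 and 46.4 CPM in Het GFP-, KO GFP- and KO GFP+ cells. Rgs10, a regulator of G protein signalling, averaged 8.14 CPM in Het GFP+ and 27.0, 20.6 and 15.7 CPM in the same other groups. Eomes followed Ikzf2 with r 0.78, Ikzf3 with 0.54, Ikzf1 with 0.14 and Ikzf5 with -0.46.

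Transcripts of other cells differed between the sorts. The sum of 12 myeloid markers was 229 to 1699 CPM in Het GFP-, 529 to 3876 in Het GFP+, 94.4 to 696 in KO GFP- and 332 to 1354 in KO GFP+ libraries, and was higher with GFP in 6 of 6 recipients, as was the sum of 6 erythroid markers (4.01 to 208 CPM overall). The part of these cells in the GFP differences of Ikzf2, Ikzf3 and Ikzf5 was not tested. B cell markers summed to 0.533 to 4.19 CPM, with Pax5 at 0 in both GFP+ groups, and NK cell markers to 1.56 to 8.87 CPM. The NK cell sum and the sum of 5 plasmacytoid dendritic cell markers (19.1 to 62.6 CPM) were lower with GFP in 6 of 6 recipients. The sum of 4 Y-linked genes was 0 to 32.0 CPM in Het and 41.5 to 221 CPM in KO libraries. That difference in sex chromosome transcripts goes with genotype and cannot be told apart from it in the genotype comparisons of any member.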

How the data were processed

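RNA of 12 libraries of sorted CD4+ T cells was sequenced from ribosomal RNA-depleted total RNA with a stranded kit, per the labels' protocols. Per the submitters' processing notes, bcl2fastq 1.8.4, TopHat2 2.0.13, featureCounts 1.5.0-p1 and DESeq2 1.6.1 were used with the mm10 build. The sources used here do not give the strand setting or the annotation. The authors deposited whole-number counts per gene, not normalized and not pooled, as a matrix and as a file per library with coordinates and summed exon length, and the 2 forms differed in 0 cells. The authors also deposited DESeq2 tables of 3 comparisons, per the file headers, with a mean normalized count (a signal averaged over libraries), a log2 fold change with its standard error, a test statistic (a score) and p-values. Adjusted p-values in those tables reach 0.0496 at most, and they were used for description.

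Symbols came from GENCODE M21 (GRCm38) for 42462 identifiers, of which 99.75% overlapped that annotation on the same chromosome and strand. The members and gene lists were chosen with earlier results of these data known. Counts were tested in edgeR 4.0.16 (R 4.3.3) by its quasi-likelihood F-test, with TMM scaling, filterByExpr (minimum count 10, minimum total 15) and 1 mean per group over all 12 libraries. Tests were two-sided, with Benjamini-Hochberg adjustment over 13238 genes and a threshold of 0.05. The fit was tested on simulated data. Genes were named by rule: Eomes, the members, at most 4 called genes per list and direction, and the 5 most and 3 least like Ikzf2 (log2 CPM, prior count 1). Genes called with the block, Foxp3, Gm28112 and Gm29112 were named in addition.

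Per the series' design text, GFP+ and GFP- libraries with the same number in a genotype come from 1 recipient. Their deviations from group means correlated with r 0.53, 0.23 and 0.59 in Het and 0.49, 0.48 and 0.26 in KO recipients. The recipient was a fixed block in edgeR for the reporter comparisons and the interaction, and a random block in limma 3.58.1 for the genotype comparisons. Other alternatives were DESeq2 1.42.0, its size factors, no filter on low counts, library sizes without the 4 features above 5% of a library, and leaving out each library. Total counts of 2116894 to 18167236 set the precision, and molecules were not marked by identifiers. The RefSeq promoter table held 2 of the 5 members and was not used.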

Additional observations from a re-analysis of the deposited data

How the results depend on the processing

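The number of genes called depended on the test. For GFP in Het cells, GFP in KO cells, genotype in GFP+ cells, genotype in GFP- cells and the interaction, edgeR called 457, 17, 14, 0 and 1 genes. Without the filter on low counts the numbers were 897, 201, 72, 26 and 6, and with DESeq2 they were 1196, 403, 93, 45 and 11. With the recipient as a replicate block they were 2944, 2349, 12, 4 and 10. Library sizes without the 4 dominant features gave 2 genes for the interaction. Leaving out 1 library gave 88 to 982, 5 to 1760, 3 to 19, 0 to 7 and 0 to 1 genes. The widest of these followed Het GFP- replicate 2 (88 for GFP in Het) and KO GFP+ replicate 1 (982 and 1760). The share of higher calls for GFP in KO cells was 5.88%, against 47.3% without the filter, 64.5% with DESeq2 and 54.1% with the block. The cause was not tested.

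For Ikzf2 every alternative kept the sign of all 5 differences: without 1 library they ran from 2.18 to 2.89 for GFP in Het, 0.00 to 0.64 for GFP in KO, 1.41 to 2.10 for genotype in GFP+, -0.77 to -0.18 for genotype in GFP- cells and 1.93 to 2.63 for the interaction. The lowest value for GFP in KO, 0.0027, has no clear direction. All these fits reuse the counts by which Ikzf2 was chosen, so they describe its dependence on processing only. For the other members the block changed the call of Ikzf3 in both reporter comparisons and no other member's call. Directions turned for values near 0: Ikzf1 for GFP in Het was -0.0567 without the filter, and without 1 library it ran from -0.0741 to 0.128. For GFP in KO, genotype in GFP+, genotype in GFP- cells and the interaction, Ikzf1 ran from -0.128 to 0.0087, -0.0644 to 0.161, -0.0812 to 0.0301 and -0.0251 to 0.188. Ikzf5 ran from -0.187 to 0.0484 for genotype in GFP+, -0.0517 to 0.0467 for genotype in GFP- cells and -0.193 to 0.0566 for the interaction, and Eomes from -0.0121 to 1.23 for genotype in GFP- cells. The Eomes call for GFP in KO cells was lost without KO GFP- replicate 3 (adjusted p 0.0575). Ikzf4 rested on 5 to 55 counts a library.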
